A study of Mus musculus with 6 samples.

Results

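Excitation-contraction coupling is the chain of steps by which an electrical signal on the surface of a muscle fibre releases calcium inside it, and 10 mouse genes of this machinery were examined for binding of Lsd1, of 26182 genes with curated RefSeq transcripts. The genes were Ryr1, Ryr3, Atp2a1, Atp2a2, Casq1, Casq2, Jph1, Jph2, Cacna1s and Trdn. A peak belonged to a gene when its centre lay within the gene's span on the mm10 assembly or within 10 kb either side of it. By this rule the genes held 48 of 43426 Lsd1 peaks of wild-type cells in myogenic medium, 17 of 18893 of wild-type cells in adipogenic medium and 18 of 33533 of LSD1-overexpressing cells, written LSD1(OE), in adipogenic medium. Jph2, which holds the surface and internal membranes of muscle together, carried more of them than any of the other 9 genes in each library. Atp2a2, Jph1, Jph2 and Ryr3 had a peak at their promoter in all 3 libraries, Ryr1 and Cacna1s in myogenic medium only. The other 4 genes had none in any library. The adipogenic call at Jph2 and the myogenic call at Ryr3 rested on peaks with scores under 100. Of all genes, 46.8, 27 and 37.3% had a promoter peak in the myogenic, adipogenic and LSD1(OE) libraries.

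In skeletal muscle, Cacna1s encodes the voltage-sensing subunit of the dihydropyridine receptor in the transverse tubule, and Ryr1 the calcium release channel of the sarcoplasmic reticulum that it opens. Ryr3 is a related release channel, Casq1 and Casq2 are calsequestrins that store calcium near the channel, and Trdn encodes triadin, which ties them to it. Atp2a1 and Atp2a2 encode the SERCA pumps that return calcium to the store, and Jph1 and Jph2 the junctophilins that bridge the membranes. Lsd1 is a lysine demethylase of histone H3 that acts in complexes at promoters and enhancers, so its peaks mark places where the protein, or a complex that holds it, was crosslinked.

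C2C12 cells, a line of mouse myoblasts that forms muscle or, under other signals, fat cells, were differentiated for 1 day under 3 conditions. Wild-type cells were kept in medium with horse serum for myogenic differentiation. Wild-type cells in adipogenic medium received isobutylmethylxanthine, indomethacin, dexamethasone, insulin, T3 and rosiglitazone. LSD1(OE) cells, a stable line that carries a doxycycline-inducible Flag-tagged LSD1 delivered by lentivirus, were given the same adipogenic medium. Doxycycline is listed for the LSD1(OE) line alone, so LSD1 level, selected line and drug cannot be told apart. The antibody was made by the laboratory against Lsd1, and neither LSD1 level nor muscle markers were measured by these libraries. Each condition had 1 ChIP library and 1 input library, so no value has a replicate, no test between conditions was possible, and each difference is a difference between single libraries.

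The ChIP libraries held 46155625, 63915769 and 55193310 tags (mapped reads after the limit on duplicates) in myogenic medium, adipogenic medium and LSD1(OE) cells, and peaks took up 7.12, 3.2 and 5.28% of them. The deepest library thus had the shortest list. A called peak held at least 27, 35 and 30 tags, and a weaker signal could not appear in these lists. The strength of a peak is given as its tag count and as a score, which is 10 times the −log10 of the p-value against the local background, with a lower limit of 50. The ChIP tags had been scaled up 1.9, 1.28 and 1.82 times before the score was computed, so scores of different libraries carry unequal scaling, and tag counts are given for the main peaks.

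The sequences before the start sites of the genes differed in their CpG content, which is shown here because promoter peaks followed it among all genes. Atp2a2, with a strong promoter peak in each library, and Trdn, with none, are given over the 150 bases before the transcription start site (TSS), on the strand of the gene, with each CG in capitals. The Atp2a2 stretch, chr5:122502226-122502375 of mm10 on the minus strand, holds 28 CG pairs, and the Trdn stretch, chr10:33083333-33083482 on the plus strand, holds 0.
Atp2a2: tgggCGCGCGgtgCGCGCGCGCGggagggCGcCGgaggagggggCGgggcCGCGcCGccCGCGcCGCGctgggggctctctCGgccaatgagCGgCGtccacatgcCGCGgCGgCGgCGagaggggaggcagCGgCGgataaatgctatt
Trdn: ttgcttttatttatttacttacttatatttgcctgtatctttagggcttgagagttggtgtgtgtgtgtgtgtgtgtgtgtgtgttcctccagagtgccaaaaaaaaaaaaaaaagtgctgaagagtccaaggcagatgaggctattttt

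At Ryr1 and Jph2, a promoter peak of myogenic medium held the E-box CAGCTG, which is given in capitals. MyoD-family factors of muscle are known to bind these letters. The genes are shown because they hold it: the 201 bases around the myogenic promoter summits of Atp2a2, Jph1, Ryr3 and Cacna1s did not. The Ryr1 sequence is the 201 bases around the summit of its promoter peak in intron 1, chr7:29123763-29123963 on the minus strand, with 2 E-boxes. The Jph2 sequence is the 150 bases before its most upstream TSS, chr2:163397994-163398143 on the minus strand, with 1 E-box.
Ryr1: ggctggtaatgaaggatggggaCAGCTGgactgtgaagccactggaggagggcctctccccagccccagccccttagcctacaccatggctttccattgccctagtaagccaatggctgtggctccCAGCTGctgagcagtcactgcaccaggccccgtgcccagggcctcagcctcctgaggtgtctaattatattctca
Jph2: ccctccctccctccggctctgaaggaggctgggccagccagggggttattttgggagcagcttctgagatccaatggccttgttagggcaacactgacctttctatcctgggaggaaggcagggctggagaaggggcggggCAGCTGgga

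A region in intron 2 of Jph2, about 11 kb into the gene, was the strongest place of that gene in both adipogenic libraries. Its summit in LSD1(OE) cells, chr2:163387019-163387219 on the minus strand, holds TGACTCA, the letters that AP-1 factors are known to bind, in capitals.
Jph2 intron 2: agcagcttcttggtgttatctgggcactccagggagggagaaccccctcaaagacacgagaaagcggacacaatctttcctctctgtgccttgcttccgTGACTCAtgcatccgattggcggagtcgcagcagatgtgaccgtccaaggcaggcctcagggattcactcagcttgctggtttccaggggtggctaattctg

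All 10 genes had at least 1 peak in myogenic medium, and 7 of 10 had one in each of the adipogenic libraries. Of all genes, 62.5, 41.2 and 53.9% had a peak in the same kind of window in myogenic medium, adipogenic medium and LSD1(OE) cells. Long genes collect more peaks, and among the 14933 genes whose window was at least as long as the shortest of these 10 (30 kb), the shares were 72.2, 48.5 and 62.4%. The windows of the 10 genes covered 1668.5 kb and held 2.88 peaks per 100 kb in myogenic medium, against 2.65 in the windows of long genes. In adipogenic medium they held 1.02 against 1.18, and in LSD1(OE) cells 1.08 against 2.0. Ryr3 and Trdn, with windows of 606 and 413 kb and few peaks, weigh most in these rates. The median of the rates of the single genes was 3.53 against 2.4 for long genes in myogenic medium, 0.572 against 0 in adipogenic medium and 1.44 against 1.64 in LSD1(OE) cells. The direction of the difference from long genes was thus the same by both measures in the myogenic and LSD1(OE) libraries and turned in the adipogenic one, and none was tested. Jph2 alone held 37.5, 41.2 and 44.4% of the peaks. Without it the remaining genes had 1.89, 0.63 and 0.63 per 100 kb, against 2.65, 1.18 and 2.0 in the windows of long genes. The pooled myogenic difference from long genes thus turned when Jph2 was left out.

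The excess of myogenic over adipogenic peaks moved with the length of the peak lists. When only the 18893 highest-scoring peaks of each library were kept, the genes held 16, 17 and 9 peaks in the myogenic, adipogenic and LSD1(OE) libraries. Jph2 then held 7, 7 and 3, and Casq2 held 2, 3 and 0. Many of the adipogenic peaks at these genes were weak, as 12 of 17, or 70.6%, scored under 100, compared with 44.1% of the whole adipogenic list. In myogenic medium the shares were 45.8 and 43.7%, and in LSD1(OE) cells 50 and 44.1%.

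**Figure D1:**
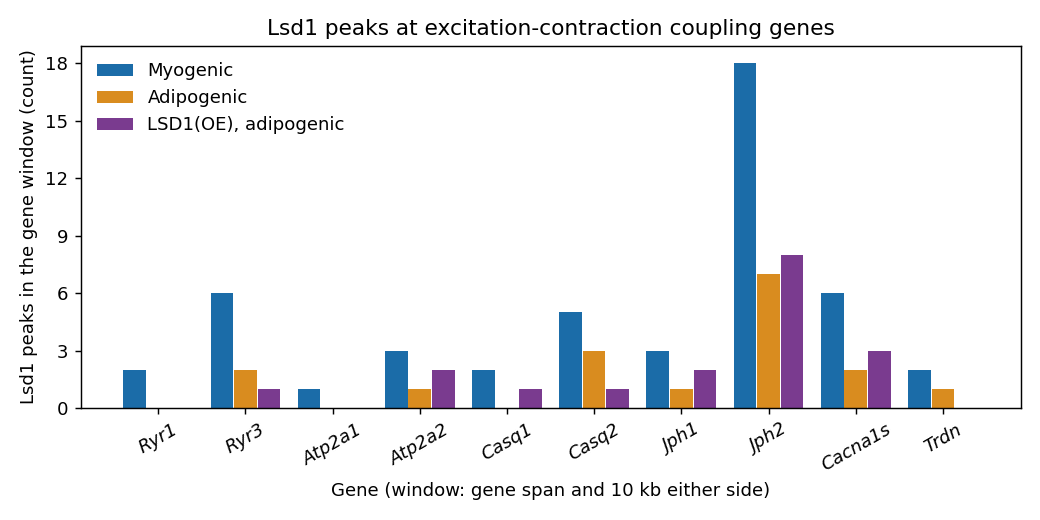
Number of Lsd1 peaks (vertical axis, count) in the window of each gene (horizontal axis), with 1 bar for each library. Jph2 stands highest in each library with 18, 7 and 8 peaks, and Ryr1, Atp2a1 and Casq1 have none in adipogenic medium.

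A promoter peak was one centred within 2000 bp of a TSS. In myogenic medium 6 of the 10 genes had one, against 46.8% of all genes. In adipogenic medium 4 had one, against 27% of all genes, and in LSD1(OE) cells 4, against 37.3%. The list was the same for both adipogenic libraries, namely Atp2a2, Jph1, Jph2 and Ryr3. The share of all genes with a promoter peak in all 3 libraries was not computed. At a score of at least 100 or an FDR of at most 0.1%, Jph2 lost its adipogenic and Ryr3 its myogenic promoter peak, and Atp2a2 and Jph1 remained in all 3 libraries.

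The CpG ratio, observed over expected CG pairs within 500 bp of the TSS, was 1.03 at Atp2a2, 0.743 at Jph1 and 0.733 at Ryr3. These 3 genes lay above 0.6, and each had a promoter peak in all 3 libraries. Of all genes above 0.6, 79.6, 48.1 and 64.3% had a promoter peak in the myogenic, adipogenic and LSD1(OE) libraries. The other 7 genes had ratios from 0.132 at Trdn to 0.411 at Ryr1. Among them Ryr1, Jph2 and Cacna1s were bound at the promoter in the myogenic library, and Jph2 alone in the adipogenic and LSD1(OE) libraries. Among all genes under 0.6 the shares were 19.6, 9.54 and 15%. Jph2, at 0.313, was the member under 0.6 with a promoter peak in every library, of which the adipogenic one, with a score of 98.7, was lost at a score of at least 100.

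**Figure D2:**
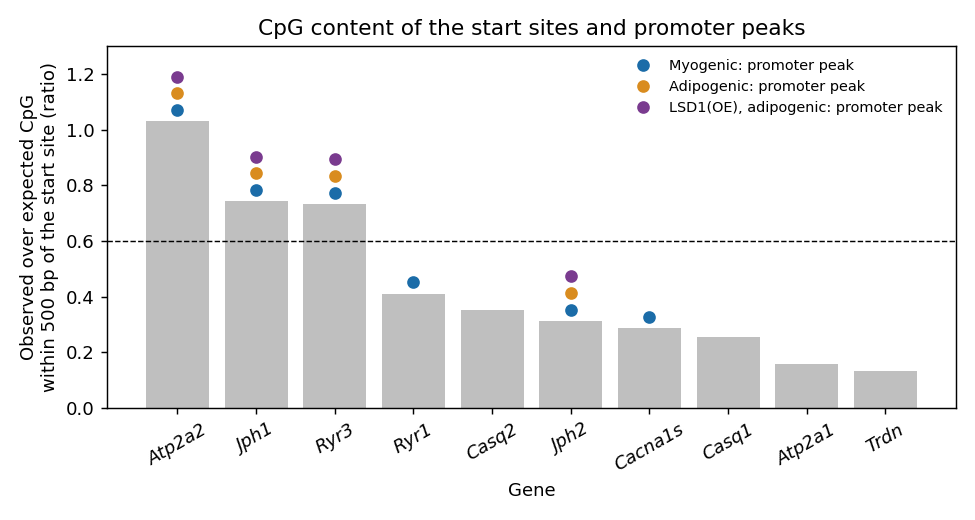
CpG ratio at the TSS (vertical axis, observed over expected, with the dashed line at 0.6) for each gene, ordered from high to low. Dots above a bar mark a promoter peak in each of the 3 libraries: Atp2a2, Jph1 and Ryr3 above the line and Jph2 below it carry 3 dots, and Ryr1 and Cacna1s carry 1.

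The voltage sensor gene Cacna1s lies on chromosome 1 from 136052811 to 136119822. Its promoter peak in myogenic medium ran from 136051243 to 136052781 and had 99 tags and a score of 293, with the TSS 799 bp downstream of its centre. Neither adipogenic library had a peak centred within 2000 bp of this TSS. At the myogenic rate, with enrichment taken as equal, 137 tags were due in the adipogenic and 118 in the LSD1(OE) library. Peaks of similar length (within 10%) held at least 79 and 72 tags there. Enrichment was not equal, as peaks took up 7.12, 3.2 and 5.28% of tags in myogenic medium, adipogenic medium and LSD1(OE) cells. Of all regions bound in all 3 libraries, 88.9% had a lower tag density, corrected for depth, in adipogenic than in myogenic medium. In LSD1(OE) cells 75.4% did. These numbers therefore cannot tell whether a peak was due, and a loss of signal was not tested. An adipogenic peak with 91 tags and a score of 162 lay just upstream, centred 2173 bp from the Cacna1s TSS but 166 bp from that of Ascl5, a neighbouring gene. The myogenic library had a peak there as well, with 59 tags and a score of 145, 284 bp from the Ascl5 TSS. With a promoter of 5000 bp, Cacna1s counted as bound in adipogenic medium too.

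Within Cacna1s, intron 2 carried weak peaks in myogenic medium at 9.08, 13.3 and 14.1 kb from the TSS, with scores of 68.9, 60.8 and 69.2. An LSD1(OE) peak at 13.9 kb, with a score of 70.6, overlapped the last pair. Beyond the end of the gene, at 74.2 kb, a region nearest to the gene Gm15850 had 44, 65 and 67 tags and scores of 102, 73.3 and 184 in myogenic medium, adipogenic medium and LSD1(OE) cells. A further LSD1(OE) peak at 76.7 kb, with 71 tags and a score of 132, lay 1714 bp from the TSS of Gm15850.

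The release channel gene Ryr1, on chromosome 7 from 29003340 to 29125151, had peaks in myogenic medium only. The promoter peak, from 29123353 to 29124799, had 82 tags and a score of 195, with its centre in intron 1, 1075 bp downstream of the TSS, so that it was not counted with a promoter of 1000 bp. At the myogenic rate, again taking enrichment as equal, 114 tags were due in the adipogenic and 98 in the LSD1(OE) library. Peaks of similar length held at least 76 and 65 there, and a loss of signal was not tested. The nearest peaks in these libraries were centred 31303 bp away with a score of 84.6 and 30769 bp away with a score of 488. The second myogenic peak, in intron 94 of a gene with 106 exons, had 27 tags and a score of 51.2, at the lower limit of the list.

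Ryr3 showed the reverse order of promoter scores, with its myogenic signal called in pieces. The adipogenic peak at its TSS, on chromosome 2 from 113216446 to 113217622, had 91 tags and a score of 145, and the LSD1(OE) peak, from 113216108 to 113217513, had 97 tags and a score of 226. In myogenic medium the same stretch held a pair of short peaks with 32 and 30 tags and scores of 66.4 and 57.9. Another lay further into intron 1 with 27 tags and a score of 52.5. At the depth of the myogenic library, the adipogenic peak would hold 66 tags and the LSD1(OE) peak 81. The order of scores thus sets pieces of the stretch against whole peaks and is not an order of signal. None of these myogenic promoter peaks was kept at a score of at least 100, and the adipogenic and LSD1(OE) peaks were. Further into the long intron 1, a myogenic peak at 101 kb from the TSS had 75 tags and a score of 232, the highest in this gene. An adipogenic peak at 97.8 kb, with a score of 55.5, did not overlap it.

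The pump gene Atp2a2, expressed in slow muscle, heart and most other cells, had the highest score of all 10 genes in both wild-type libraries. Its promoter peak, on chromosome 5, covered the TSS in each library. It had 189 tags and a score of 829 in myogenic medium, 154 tags and a score of 380 in adipogenic medium, and 146 tags and a score of 414 in LSD1(OE) cells. These scores stood at percentiles 95.3, 91.7 and 87.0 of all peaks of their library. The adult fast-muscle pump gene Atp2a1 differed from it. It had 1 weak peak in myogenic medium, 2671 bp before the TSS, with 29 tags and a score of 54.4. In the adipogenic and LSD1(OE) libraries the nearest peaks were centred 19473 and 10833 bp from its TSS.

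Neither calsequestrin gene had a promoter peak. At Casq1, the fast-fibre form, a myogenic peak in intron 2 at 2641 bp from the TSS had 33 tags and a score of 60.9. The stronger peaks in the Casq1 window lay past its end, at the TSS of Pea15a, with 126 tags and a score of 444 in myogenic medium and 56 tags and a score of 114 in LSD1(OE) cells. Their centres were 873 and 300 bp from the Pea15a TSS. The nearest adipogenic peak was centred 87454 bp from the Casq1 TSS.

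Casq2, the cardiac and slow-muscle form, was bound within its body. Myogenic medium gave 5 peaks, of which the strongest lay in intron 1 at 9.32 kb (74 tags, score 257) and in intron 2 at 26.0 kb (79 tags, score 240). The first had no counterpart in the other libraries, where 102 and 88 tags were due at the myogenic rate if enrichment was equal. Peaks of similar length held at least 57 and 47 there. At 26.5 kb an adipogenic peak with 77 tags and a score of 82.4 overlapped the second. At about 15 kb, in intron 1, each library had a peak, with scores of 138, 56.2 and 50.1 in myogenic medium, adipogenic medium and LSD1(OE) cells. A last overlapping pair in the wild-type libraries, around exon 9, scored 70.0 and 51.4.

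Trdn, a gene of 393 kb, had 2 peaks in myogenic medium, in introns 8 and 12, with scores of 51.8 and 50.4. Adipogenic medium gave 1 peak, in intron 5, with 70 tags and a score of 93.5, and LSD1(OE) cells gave none. Myogenic and adipogenic peaks did not overlap. The limit of 10 kb decided the next places: a myogenic peak at 10.1 kb upstream of Trdn, with a score of 70.2, fell outside, and one at 9.46 kb upstream of Atp2a2, with a score of 149, fell inside.

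**Figure D3:**
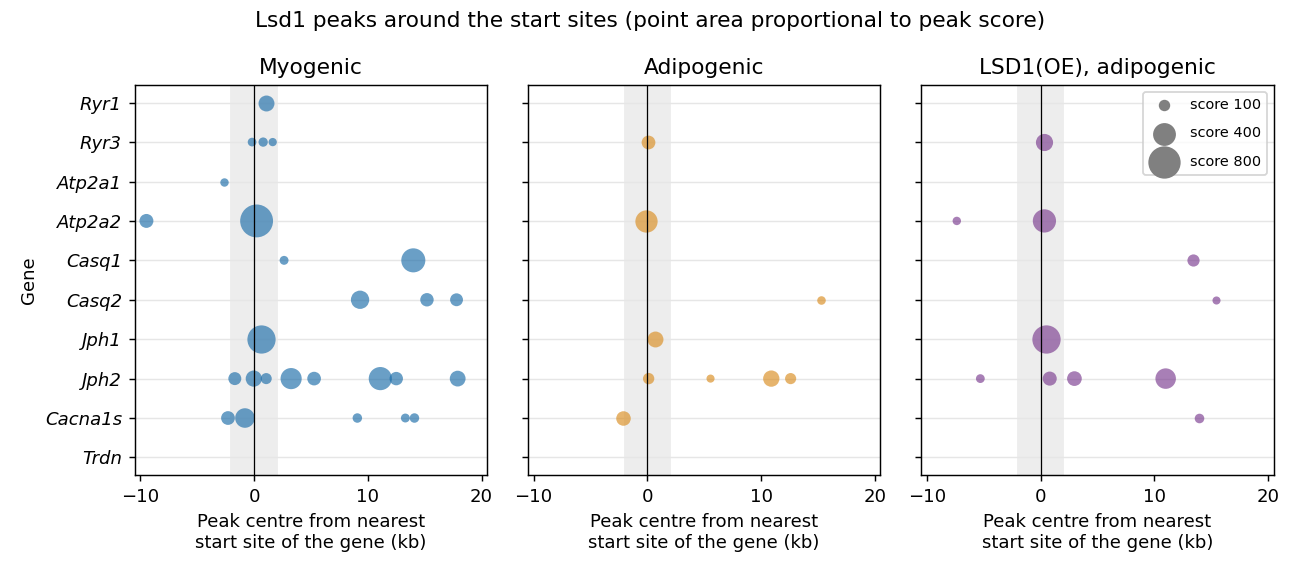
Centres of Lsd1 peaks from 10 kb before to 20 kb after the TSS (horizontal axis, kb) for each gene (rows) in the 3 libraries (panels), with point area proportional to the peak score and the promoter of 2000 bp either side shaded. Atp2a2, Jph1, Jph2 and Ryr3 have points in the shaded band in all panels, and Ryr1 and Cacna1s in the myogenic panel only.

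The junctophilin gene Jph1 had its main peak at the promoter, on chromosome 1, with the centre in coding sequence of exon 1. It had 158 tags and a score of 611 in myogenic medium, 139 tags and a score of 194 in adipogenic medium, and 163 tags and a score of 614 in LSD1(OE) cells. LSD1(OE) cells were thus near myogenic medium in score, and the adipogenic score lay below both. Intron 2 carried myogenic peaks at 37.9 and 44.0 kb with scores of 115 and 130, and an LSD1(OE) peak at 26.1 kb with a score of 60.6.

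Jph2, on chromosome 2 from 163336242 to 163397993, held 18 peaks in myogenic medium in a window of 81.8 kb. As many or more were found in 118 of the 14933 long genes. Its 7 adipogenic peaks were matched or exceeded in 288 of these genes, and its 8 LSD1(OE) peaks in 620. The count in myogenic medium fell to 11 at a score of at least 100 and to 7 at equal list length, while the adipogenic count at a score of at least 100 was 1 and the LSD1(OE) count 3.

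Around the start of Jph2, a myogenic peak with its centre 23 bp before the TSS had 69 tags and a score of 201. The adipogenic peak, 119 bp downstream, had 74 tags and a score of 98.7, and the LSD1(OE) peak, 807 bp downstream, had 71 tags and a score of 152. The next strong myogenic peak, at 3.26 kb, had 117 tags and a score of 343 and was overlapped by an LSD1(OE) peak with 64 tags and a score of 166, with no adipogenic peak there. The intron 2 region printed above had 101 tags and a score of 412 in myogenic medium, 107 tags and a score of 204 in adipogenic medium, and 104 tags and a score of 322 in LSD1(OE) cells.

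Intron 3 of Jph2 differed between the libraries. In myogenic medium a broad peak of 3878 bp, from 163352843 to 163356720, had 249 tags and a score of 781. It was followed at 47.9 and 49.7 kb by peaks with scores of 294 and 394. In adipogenic medium this block held 1 peak with 55 tags and a score of 51.8, at 44.2 kb. In LSD1(OE) cells it held peaks at 41.3 and 48.5 kb with 46 and 38 tags and scores of 58.7 and 77.3. At the rate of the broad myogenic peak, and with enrichment taken as equal, 345 tags were due in the adipogenic and 298 in the LSD1(OE) library. Peaks of similar length held at least 261 and 218 there. Enrichment was not equal, as given at Cacna1s, so these numbers cannot tell whether a peak was due. The adipogenic peak at 44.2 kb and the LSD1(OE) peak at 41.3 kb overlapped the broad myogenic peak but not each other, and the LSD1(OE) peak at 48.5 kb overlapped the myogenic peak at 47.9 kb.

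**Figure D4:**
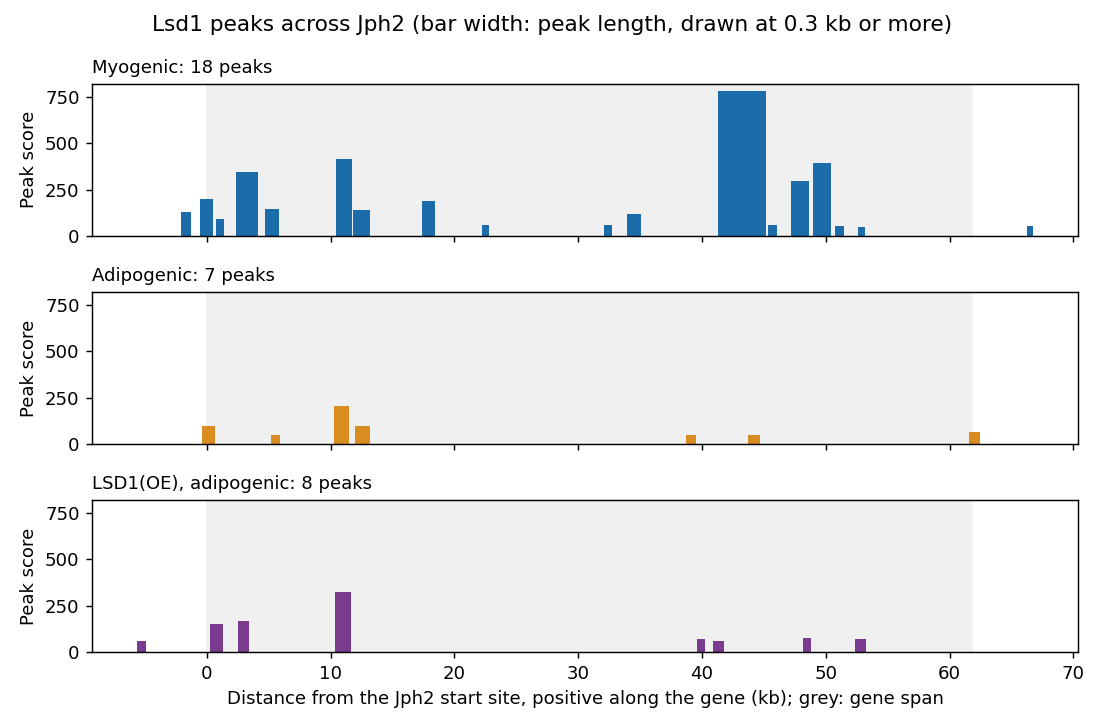
Peak score (vertical axis) along Jph2 by distance from the TSS in the direction of the gene (horizontal axis, kb) in the 3 libraries, with the gene span in grey. The region at 11 kb stands out in each panel with scores of 412, 204 and 322, and the block from 41 to 51 kb reaches 781 in the myogenic panel only.

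Joined by overlaps of at least 1 bp, the peaks of the 10 genes formed 54 regions, of 56729 in all. Of these, 8 were bound in all 3 libraries, or 14.8%, against 20.6% of all regions. Regions of myogenic medium only numbered 27, or 50%, against 35.9%. Jph2 alone held 9 of these 27 and 3 of the 8, so the shares rest in part on this gene. No region was shared by both adipogenic libraries without the myogenic one, a pattern of 2.45% of all regions. The wild-type libraries alone shared 5, or 9.26%, against 4.38%. Myogenic medium and LSD1(OE) shared 5, or 9.26%, against 12.2%. Adipogenic only were 4, or 7.41%, against 3.7%, and LSD1(OE) only were 5, or 9.26%, against 20.8%. Of the 17 adipogenic peaks, 8 overlapped a region with an LSD1(OE) peak, or 47.1%, while 75.6% of all adipogenic peaks did. Of the same 17 peaks, 13 lay in a region with a myogenic peak, or 76.5%, against 81.5% of all. Of the 18 LSD1(OE) peaks, 13 lay with a myogenic peak (72.2%, against 60.6% of all) and 8 with an adipogenic one (44.4%, against 43.6%).

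Among the 8 regions bound in all 3 libraries were the promoters of Atp2a2, Jph1, Jph2 and Ryr3. The others included the Jph2 regions at 11.1 and 43.2 kb and the Casq2 region at 15.2 kb. The last lay past the end of Cacna1s, 74.2 kb from its TSS. At 43.2 kb in Jph2 the adipogenic and LSD1(OE) peaks were joined only through the broad myogenic peak, so their ratio compares different places. With an overlap of 50% of the shorter peak 7 regions were bound in all 3 libraries, and with summits within 500 bp 6. Tag density, in tags per kb per 1000000 ChIP tags, was lower in adipogenic than in myogenic medium at 7 of the 8, with a median log2 ratio of -0.32, against -0.35 at the 11664 regions of all genes bound in all 3, of which 88.9% were lower. The median ratio of LSD1(OE) cells to myogenic medium was -0.22, against -0.21 over all. For LSD1(OE) cells over adipogenic medium it was 0.07, against 0.14.

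The Jph1 promoter had 1.66 tags per kb per 1000000 in myogenic medium (95% exact Poisson interval 1.42 to 1.95), 1.14 in adipogenic medium (0.955 to 1.34) and 1.68 in LSD1(OE) cells (1.43 to 1.95). Its log2 ratio of LSD1(OE) cells to adipogenic medium was 0.56, with an exact interval from 0.23 to 0.9, and stood at percentile 96.4 of all shared regions. At Atp2a2 the same ratio was -0.19, with an interval from -0.52 to 0.15, at percentile 8.29. The densities of Atp2a2 were 1.82, 1.59 and 1.4. Ryr3 was the region with a higher density in adipogenic than in myogenic medium, with a log2 ratio of 0.13 and an interval from -0.46 to 0.76 that includes no difference. These intervals cover counting error only and not the spread between cultures, and each density was taken over the strongest peak of the region as called in its own library.

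**Figure D5:**
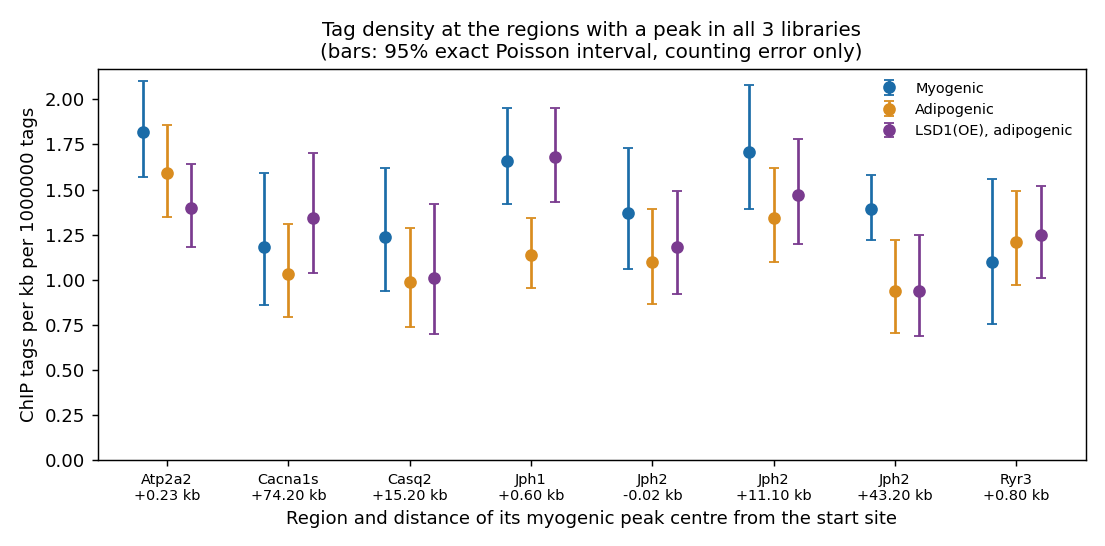
Tag density (vertical axis, ChIP tags per kb per 1000000 tags) with 95% exact Poisson intervals at the 8 regions bound in all 3 libraries (horizontal axis, gene and distance from the TSS). The adipogenic value lies below the myogenic one at each region other than Ryr3, and the LSD1(OE) value is near the myogenic one at Jph1 (1.68 and 1.66).

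Short motifs were counted on both strands in the 201 bases around each summit. CAGCTG, which reads the same on both strands, occurred in 7 of 48 myogenic windows, or 14.6%, against 19.3% of all myogenic windows. It occurred in 3 of 17 adipogenic windows (17.6%, against 22.0%) and in 2 of 18 LSD1(OE) windows (11.1%, against 19.2%). TGANTCA, the AP-1 letters, occurred in 4, 4 and 3 windows, or 8.33, 23.5 and 16.7%, against 13.6, 14.7 and 13.1%. In the Jph2 region at 11 kb the summits of both adipogenic libraries held it, and that of the myogenic library, further along the gene, did not.

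The motif of MEF2, a muscle transcription factor family, occurred in 3 myogenic windows, in Ryr3, Trdn and Jph2, or 6.25% against 1.82%. The Ryr3 and Trdn windows belonged to peaks near the lower limit of the list, with scores of 52.5 and 51.8, and the Jph2 peak scored 143. None of the 17 adipogenic and 18 LSD1(OE) windows held the motif, against 1.34 and 1.27% of all windows. GGAATG, known for TEAD factors, occurred in 7, 0 and 1 windows, or 14.6, 0 and 5.56%, against 12.3, 11.6 and 11.5% of all windows. TGTGGT, known for RUNX factors, occurred in 8, 3 and 1, or 16.7, 17.6 and 5.56%, against 17.7, 17.4 and 16.4%. With so few windows these counts describe the sequences and do not set the genes apart. A motif may overlap another in the same window, since each was counted on its own.

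A further 39 genes of calcium handling and membrane coupling in muscle were set beside the 10, and all were matched to the annotation. Of these, 33, 23 and 31 had a peak in their window in the myogenic, adipogenic and LSD1(OE) libraries, or 84.6, 59.0 and 79.5%, against 62.5, 41.2 and 53.9% of all genes and 72.2, 48.5 and 62.4% of long genes. Promoter peaks were found at 24 (61.5%), 13 (33.3%) and 19 (48.7%), above the shares of all genes given above in each library, without a test. The 39 genes were chosen with earlier results of these data known and were not matched for CpG ratio. Higher shares of peaks therefore do not set them apart. A promoter peak was present in all 3 libraries at 11 of the genes and in none at 15. The shares of all genes with these patterns were not computed, so the counts do not set the genes apart.

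The highest promoter scores among these genes belonged to Orai1, the channel that refills calcium stores from outside, with scores of 1164.6, 617 and 1041.9 in the same order of libraries. Calm3, a calmodulin gene, scored 1043.4, 215 and 513. Bin1, which shapes transverse tubules, scored 638, 126 and 984, and Mrln, whose micropeptide myoregulin inhibits the SERCA pump, scored 522, 390 and 895. Tmem38a, a potassium channel of the sarcoplasmic reticulum, scored 715, 94.6 and 141. Scores without scaling were approximated by dividing each score by the scaling of its library. At Mrln they were 275, 306 and 490, from 154, 234 and 231 tags, so the order of myogenic and adipogenic medium turned. At the other 4 genes the adipogenic score was the lowest of the 3 with and without scaling. Among the further genes Pvalb, a calcium buffer of fast fibres named here after its values were seen, had a lower score in myogenic medium than in both adipogenic libraries, at 161, 370 and 472.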

How the data were processed

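Lsd1 ChIP-seq libraries and their inputs were made from C2C12 cells, 1 of each in 3 conditions. The authors mapped 50 bp reads to mm10 with Bowtie (the labels name Bowtie2) and called peaks per ChIP library against its input. The file headers name MACS 1.4.2 (the labels MACS 1.41), at p 1e-05, with at most 2 (ChIP) or 3 (input) tags per position and the smaller library scaled up. The deposited peak lists give tag counts without normalization, a score of 10 times −log10 p, an FDR in percent, and a fold enrichment ratio that was not compared between libraries. All peaks had an FDR under 1%. Start sites came from curated RefSeq transcripts of mm10 (31647 sites), and sequences from the same assembly. Places in genes refer to the longest coding transcript. Windows, promoters, overlaps, CpG ratios and motifs were computed with pandas 2.3.3, NumPy 2.4.6 and SciPy 1.17.1 under Python 3.11.15. The window, promoter, nearest-TSS and overlap steps were tested on simulated data. Intervals are exact, at 95%, and cover counting error only. With 1 library per condition no test was made. The 10 genes and the 39 further genes were chosen with earlier results of these data known. Named were the 10 genes with their peaks, the 5 further genes with the highest promoter score among those with a promoter peak in at least 2 libraries, neighbours whose TSS lay nearest a peak and within 2000 bp of it, and the nearest peak where a window had none. Alternatives were stricter scores and FDR, equal list lengths, scores divided by the scaling of the ChIP tags, and other windows, promoters and overlaps.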

Additional observations from a re-analysis of the deposited data

How the results depend on the processing

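No paired analysis was possible because each condition had 1 library, and for the same reason no library could be left out. At an FDR of at most 0.1%, the genes held 25, 5 and 8 peaks in myogenic medium, adipogenic medium and LSD1(OE) cells, and 3 regions were bound in all 3 libraries. At a score of at least 100 they held 26, 5 and 9, with 3 such regions. At equal numbers of peaks they held 16 in myogenic medium and 9 in LSD1(OE) cells, with 4 regions in all 3 libraries and 8 in myogenic medium only, so the order of myogenic and adipogenic medium (17 peaks) turned. Scores were also divided by the scaling of the ChIP tags, which only approximates scores from tags not scaled. At a divided score of at least 50 the genes held 26, 11 and 9 peaks, with 5 and 16 regions. With a flank of 50 kb they held 83, 31 and 33. These counts follow from the construction of each alternative, as fewer peaks or longer windows. Of 89 values recomputed for the main counts and ratios, the other 69 stayed within 1.5 times of the main value or within its counting interval, among them the numbers of genes with a peak and with a promoter peak. The genes behind the promoter counts changed: Ryr3 left the myogenic list under each stricter list of peaks and Ryr1 at 1000 bp, Jph2 left the adipogenic list at a score of at least 100 and at an FDR of at most 0.1%, and at 5000 bp Atp2a1 and Casq1 entered the myogenic list and Cacna1s the adipogenic one. Depth limits the weakest peaks, which rest on 27 to 35 tags.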
